A study of Canis lupus familiaris with 30 samples.

Results

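Levels of 9 genes around menin were read in 30 canine thyroid carcinomas (TC): *MEN1* itself, the menin partners *KMT2A*, *KMT2B*, *WDR5*, *ASH2L* and *RBBP5*, and the cyclin-dependent kinase (CDK) inhibitors *CDKN1B*, *CDKN2C* and *CDKN1A*. The genes were picked by symbol from a table of raw read counts for 30424 genes, all 9 had a row, and all 9 passed the filter of at least 10 counts in at least 5 tumors that 18711 genes passed. The tumors were primary, naturally arising carcinomas of the thyroid gland of dogs, 1 bulk RNA library each. The labels give a library name (a TC number) and no tumor type, treatment, age or genotype, so no tumor was placed in a group and no mean or test between kinds of tumor is given. The study's clinical and pathology data class TC1020, TC1473, TC1601, TC1936 and TC2289 as medullary carcinomas (MTC, of the calcitonin-making C cells). The other tumors are classed as follicular carcinomas (FTC, of the hormone-making follicular cells). TC1164, TC1593 and TC815, all FTC, are the tumors in which the study's sequencing found a somatic variant in *MEN1*. The class of TC1020 was set from its calcitonin transcript and is thus not independent of these counts.

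Menin, the protein of *MEN1*, is a nuclear scaffold and a tumor suppressor of endocrine glands, and inherited loss of it leads to tumors of the parathyroids, the pituitary and the pancreatic islets. It holds *KMT2A* and *KMT2B*, enzymes that methylate histone H3 at active genes, on chromatin, and these enzymes work with a core of *WDR5*, *ASH2L* and *RBBP5*. In islet cells menin and *KMT2A* are known to keep *CDKN1B* (p27) and *CDKN2C* (p18) transcribed, both brakes on the cell cycle, while *CDKN1A* (p21) is a CDK inhibitor that halts the cycle under stress.

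Total counts ran from 12288945 to 45148677 per tumor, with a median of 25569678. A level here is log2 of the count divided by the library's size factor, plus 1. Size factors ran from 0.279 in TC538 to 1.624, and TC538 stood apart in many genes, so results that turn on it are also given without it. On 764 variable genes the tumors fell into 2 branches, the larger of 25 tumors, all FTC, and the smaller of the 5 MTC. C cell markers summed to levels of 5.42 to 13.14 in the larger branch and 17.84 to 19.43 in the smaller one, while follicular cell markers reached 7.85 to 22.75 and 9.10 to 17.78. In TC1088 the follicular markers had their lowest sum. Parathyroid markers summed to 2.42 to 14.84 in the larger branch, the highest in TC2288, and to 13.37 to 15.48 in the smaller one. In the smaller branch that sum was nearly all *CASR*, the calcium-sensing receptor, which C cells also express, while *PTH* (14.80) and *GCM2* (7.65) were highest in TC2288. *GCM2* was at or under 3 counts in most tumors. Among C cell markers, *CALCB* was at or under 3 counts in most tumors. In bulk tissue, fewer cells of a type and less RNA per cell cannot be told apart. Correlations are given only over the 25 tumors of the larger branch.

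*MEN1* (ENSCAFG00000014185) had its lowest level, 7.78, in TC1593, a median of 9.85 over the 30 tumors, and its highest, 10.81, in TC1601. The 3 tumors with a *MEN1* variant all lay below the median, at places 1, 4 and 6 from the bottom. TC1593 held 260 reads of *MEN1*, a level of 7.78 with a difference from the median of -2.08 on the log2 scale, or 0.237 of it. TC1164 held 316 reads and a level of 8.68, 0.443 of the median. TC815 held 733 reads and a level of 9.23, 0.647 of the median. The variant tumors therefore did not share a single level, and they were not separate from the rest. TC538, with no variant recorded, had a level of 7.89 from only 66 reads, with a 95% Poisson interval of 7.52 to 8.24 that holds the whole interval of TC1593, 7.60 to 7.95. TC1473, an MTC, stood at 8.29, and TC1994 stood at 9.19, between TC1164 and TC815. Intervals of this kind cover counting error only.

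**Figure D1:**
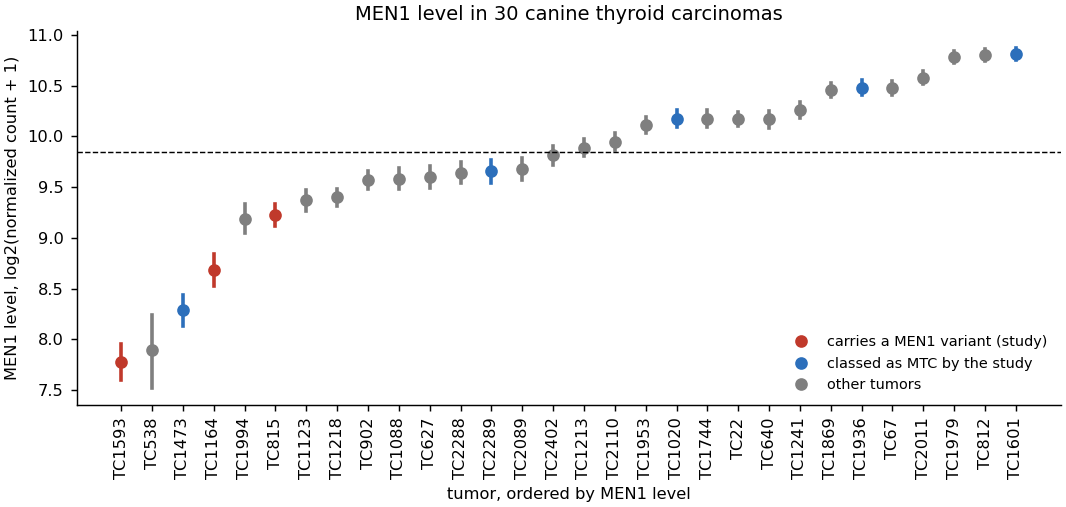
*MEN1* level, log2(normalized count + 1), in each of the 30 tumors, ordered from low to high; each point is 1 tumor, vertical bars are 95% Poisson intervals of the count, and the dashed line is the median of 9.85. The 3 tumors with a *MEN1* variant (red) sit at 7.78, 8.68 and 9.23, with TC538 and the MTC tumor TC1473 among them.

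The 5 MTC were spread over nearly the whole range of *MEN1*. TC1473 had 8.29, TC2289 9.66, TC1020 10.17, TC1936 10.48 and TC1601 10.81. They held both the third lowest level and the highest one of the series, and the levels of MTC and FTC overlapped.

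The histone methyltransferases and their core varied less than most genes. Over the 11275 tested genes with a median of at least 100 normalized counts, the median range from the lowest to the highest tumor was 3.56 on the log2 scale. *KMT2A* (ENSCAFG00000012691) ran from 11.58 in TC1979 over a median of 12.43 to 13.21 in TC1123, a range of 1.63 that was at percentile 3.2 of those genes. *RBBP5* (ENSCAFG00000009970), which with *ASH2L* activates the catalytic domain, ran from 9.61 in TC22 over a median of 10.38 to 11.00 in TC1593, a range of 1.39 at percentile 1.1. *ASH2L* (ENSCAFG00000006146) ran from 9.07 in TC815 over 10.08 to 10.85 in TC538, at percentile 5.0. By the interquartile range *KMT2A* (0.40) and *ASH2L* (0.52) were again steady, at percentiles 2.1 and 8.7, and *RBBP5* less so, with 0.68 at percentile 24.5. *WDR5* (ENSCAFG00000019830), the propeller protein that docks the enzyme to its core, ran from 10.73 in TC1473 over 11.66 to 13.06 in TC1869, a range of 2.33. *KMT2B* (ENSCAFG00000006878) ran from 8.98 in TC1473 over 10.85 to 11.72 in TC1979, a range of 2.74.

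The MTC lay low for *KMT2B*. It had levels of 8.98 in TC1473, 9.76 in TC1936, 10.11 in TC1020 and 10.15 in TC2289, at places 1, 3, 4 and 5 from the bottom, while TC1601 stood at place 17 with 10.87. Among FTC, only TC538 lay in that low range, at 9.04. For *KMT2A*, *WDR5*, *ASH2L* and *RBBP5* the MTC were scattered: their *WDR5* levels ran from 10.73, the lowest of all tumors, to 12.30 in TC1020, and their *KMT2A* levels from 11.71 in TC2289 to 12.53 in TC1020.

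The CDK inhibitors were more variable. *CDKN2C* (ENSCAFG00000028905) ran from 5.12 in TC627 over a median of 8.26 to 10.39 in TC640, a range of 5.28 at percentile 82.4. *CDKN1A* (ENSCAFG00000029853) ran from 6.50 in TC538 over 8.61 to 11.24 in TC1744, a range of 4.73 at percentile 75.3. *CDKN1B* (ENSCAFG00000013244) ran from 7.49 in TC538 over 10.20 to 11.99 in TC1869, a range of 4.49 at percentile 71.5, and without its extremes it was far steadier, with an interquartile range of 0.64 against a median of 0.92 over those 11275 genes. The interquartile range was 1.67 for *CDKN2C* and 1.41 for *CDKN1A*.

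High and low tumors differed between the 3 inhibitors. *CDKN2C* was low in TC627, TC902 (5.40), TC1936 (6.01), TC1593 (6.29), TC1869 (6.36) and TC1241 (6.38). In TC1869 it was low while *CDKN1B* was at its highest. TC640 and TC22, with the highest *CDKN2C* levels of 10.39 and 9.87, also held the highest levels of *CDK4*, a kinase that *CDKN2C* binds: 15.15 in TC640 and 14.20 in TC22 against a median of 11.02. Over the 25 tumors of the larger branch the 2 genes were not called as correlated. Their rho was 0.27 (permutation p = 0.198, adjusted p = 0.982) and Pearson r 0.44 (permutation p = 0.0294). *CDKN1A* was 11.24 in TC1744 and 10.21 in the next tumor, TC1601.

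**Figure D2:**
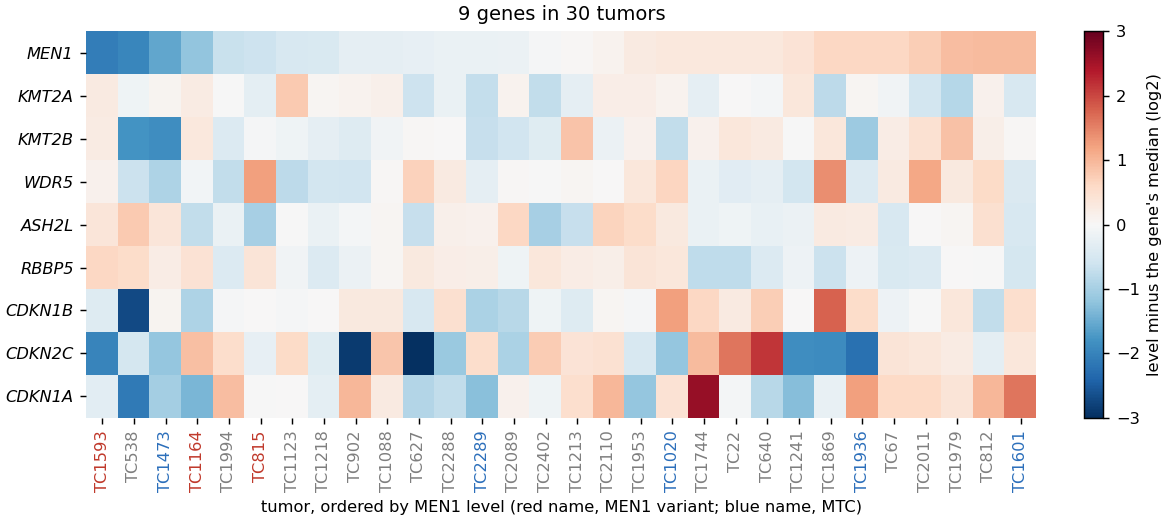
Level minus the gene's median over the 30 tumors (log2; red above, blue below, colors end at 3 in either direction), with the 9 genes as rows and the tumors as columns in order of *MEN1* level. The rows of *KMT2A*, *ASH2L* and *RBBP5* are pale throughout, and the strongest colors are in the rows of the CDK inhibitors, in different tumors for each.

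Levels of the MTC were also mixed for the inhibitors. For *CDKN1B* they were 11.42 in TC1020, 10.75 in TC1936, 10.71 in TC1601, 10.29 in TC1473 and 9.26 in TC2289. TC1020 had the second highest and TC2289 the second lowest level of the series. For *CDKN1A*, TC1601 at 10.21 and TC1936 at 9.85 were the tumors after TC1744, while TC2289 and TC1473 were low at 7.37 and 7.59. For *CDKN2C* they ran from 6.01 in TC1936 to 8.78 in TC2289.

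The other 8 genes in the 3 tumors with a *MEN1* variant gave a common picture for 1 gene only. *RBBP5* was high in all of them, at 11.00 in TC1593, 10.81 in TC1164 and 10.76 in TC815, places 1, 3 and 4 from the top, with TC538 at place 2. The excess over the median was small, 0.62, 0.43 and 0.38 on the log2 scale. For *ASH2L* they split, with 9.07 in TC815 and 9.33 in TC1164, places 1 and 3 from the bottom, and 10.45 in TC1593. *WDR5* was 12.88 in TC815, 2.33 times the median, and near the median in TC1164 (11.58) and TC1593 (11.78). *KMT2A* and *KMT2B* lay within 0.31 of their medians in these tumors.

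The inhibitors that menin is known to sustain in islets showed no shared level in the variant tumors. *CDKN1B* was 9.29 in TC1164, 9.83 in TC1593 and 10.21 in TC815, or 0.529, 0.771 and 1.00 of the median. *CDKN2C* was 6.29 in TC1593, 0.256 of the median, 8.00 in TC815, and 9.17 in TC1164, 1.88 of the median. *CDKN1A* was 7.23 in TC1164, the second lowest of all tumors, 8.30 in TC1593 and 8.60 in TC815. TC1593, which had the least *MEN1*, thus had low *CDKN2C* but middling *CDKN1B* and *CDKN1A*, and TC1164 had the reverse.

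Over the 25 tumors of the larger branch, Spearman correlations of *MEN1* with all other tested genes were then taken, with a two-sided permutation test and adjustment over 18710 genes. *MEN1* moved with a large part of the transcriptome: 3006 genes (16.1%) were called with a positive and 3364 (18.0%) with a negative rho, 34.0% in all. This is the background for what follows, since a call with *MEN1* was common for any gene. Much of it ran along the first principal component of the tested genes, which held 20.2% of their variance. With the score on that component *MEN1* had a rho of 0.82 (permutation p = 3.5e-06, adjusted p = 0.000343 over 98 relations; Pearson r = 0.81, permutation p = 1e-05, and 0.77 without TC1593 and TC538). The component itself was called with 42.5% of the genes, and TC538 lay at its low end with a score of -3.39 SD, the next being TC1088 at -0.90. Its rho with the total count was 0.56 (permutation p = 0.00447, adjusted p = 0.0877), and with fibroblast markers 0.50 (permutation p = 0.0114, adjusted p = 0.131). Among summed cell type markers *MEN1* itself had its highest rho with those of immune cells, 0.43 (permutation p = 0.0342, adjusted p = 0.209). That sum was mostly *CD79A*, with a median of 12226.1 normalized counts against 1530.6 for *CSF1R*, the next, and 1.2 for *MS4A1*. It thus cannot be read as a measure of immune cells at large. What the component stands for was not tested.

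After a linear fit on that component, used for single tumors only once the data had been seen, the 3 tumors with a *MEN1* variant held the 3 lowest *MEN1* values of the 25. TC1593 lay at -1.50 from its fitted level on the log2 scale, or 0.354 of it. TC815 lay at -0.71 and TC1164 at -0.70, or 0.611 and 0.618 of the fitted level. The next lowest was TC1213 at -0.34, and TC538 stood at 0.28, or at -0.07 with the trimmed mean scaling of edgeR (TMM) and -0.17 with counts scaled to the library total (CPM). These ranks of 1, 2 and 3 were held by the same tumors when TC538 was left out (-1.55 in TC1593, -0.61 in TC815, -0.60 in TC1164), and with TMM, CPM or a pseudocount of 8, with values of -1.20 to -1.46 in TC1593 and -0.58 to -0.68 in TC815 and TC1164. No test was made, since the labels do not group these tumors.

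The genes most like *MEN1* were its companions on the chromosome. Among genes with at least 100 median normalized counts the 5 highest rho were those of *PCNX3* (0.96), *RIC8A* (0.96), *ZNRD2* (0.94), *YIF1A* (0.94) and *VPS51* (0.94), each with an adjusted p of 0.000117 from the permutation test. Their Pearson r ran from 0.91 to 0.94 and was no lower than 0.92 without TC1593 and TC538. All 5 lie on the same chromosome as *MEN1* in the RefSeq annotation of the UU_Cfam_GSD_1.0 assembly, which was used for gene order only. The lowest were *GIT2* (-0.90), *AGTPBP1* (-0.89), *SRPK1* (-0.88), *AP1AR* (-0.88) and *MARCHF1* (-0.87), none of them on that chromosome.

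This held for the chromosome at large, a comparison made after these genes had been seen. Of 13300 tested genes placed in that annotation, 453 others lie on the chromosome of *MEN1*, or 3.41%, but they made up 41 of the 50 genes with the highest rho. Their median rho with *MEN1* was 0.45 against 0.07 for 12846 genes elsewhere, and 212 of 453 were called with a positive rho against 2316 of 12846. After the fit on the first component they were 48 of the highest 50, with a median rho of 0.32 against -0.01. The 3 genes still called after that fit, *ARFGAP2* (rho 0.87, adjusted p = 0.00935), *RIC8A* (0.84, adjusted p = 0.0187) and *UQCC3* (0.80, adjusted p = 0.0374, all by permutation), were all on that chromosome, and none was called elsewhere, where 312 had a positive and 591 a negative rho with an unadjusted p under 0.05.

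The relation to *MEN1* was not limited to its neighbours. For the 20 genes nearest to *MEN1*, 10 on each side, the median rho was 0.68 before and 0.29 after the fit. For the 80 genes at 11 to 50 placed genes away it was 0.71 and 0.40, for the 85 at 51 to 100 away 0.64 and 0.32, and for the 268 farther away 0.28 and 0.28. Of the nearest 20, 14 were called with a positive and none with a negative rho before the fit, the strongest being *TRMT112* (0.90), *ATG2A* (0.83) and *MAP4K2* (0.81), the gene next to *MEN1*.

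The tumors with a *MEN1* variant were low for the whole chromosome. The median over its 453 other genes, each as a difference from its own median over the 30 tumors, was -0.81 in TC1593, -0.73 in TC1164 and -0.57 in TC815, places 2, 3 and 4 from the bottom, with TC538 lowest at -0.82. After the fit on the first component these medians were -0.61 in TC815, -0.57 in TC1593 and -0.53 in TC1164, the 3 lowest of 25 tumors. The next was TC2089 at -0.12, and TC538 stood at 0.15. The levels of *MEN1* in TC815 and TC1164, -0.71 and -0.70 after the fit, were thus close to the medians of their chromosome. *MEN1* in TC1593, at -1.50, lay far below that median, but single genes spread widely around it. Before any fit, *CDCA5* (-2.58) and *SAC3D1* (-2.25), among the 20 nearest genes, fell further in TC1593 than *MEN1* (-2.08). The others of those 20 fell less. In TC1164, nearest genes such as *KCNK4* (-1.98) and *NAALADL1* (-1.91) fell further than *MEN1* (-1.18). Set against its 20 nearest genes without any fit, the difference of *MEN1* was -1.16 in TC1593, the lowest of 30 tumors. TC1473, an MTC, stood second at -0.86. TC1164 was at place 5 from the bottom with -0.30, and TC815 at place 12 with -0.14.

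Low values over a whole chromosome were not limited to this one in these tumors. Over 39 chromosomes with at least 100 placed genes, the chromosome of *MEN1* was at places 1, 1 and 2 from the bottom in TC1164, TC1593 and TC815 by the difference from the median. Other chromosomes ran from -0.57 to 0.56 in TC1164, from -0.63 to 0.57 in TC1593 and from -0.74 to 0.59 in TC815. After the fit it was at places 2, 3 and 1. DNA copies of the chromosome are not in the table, and their part in these levels was not tested.

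**Figure D3:**
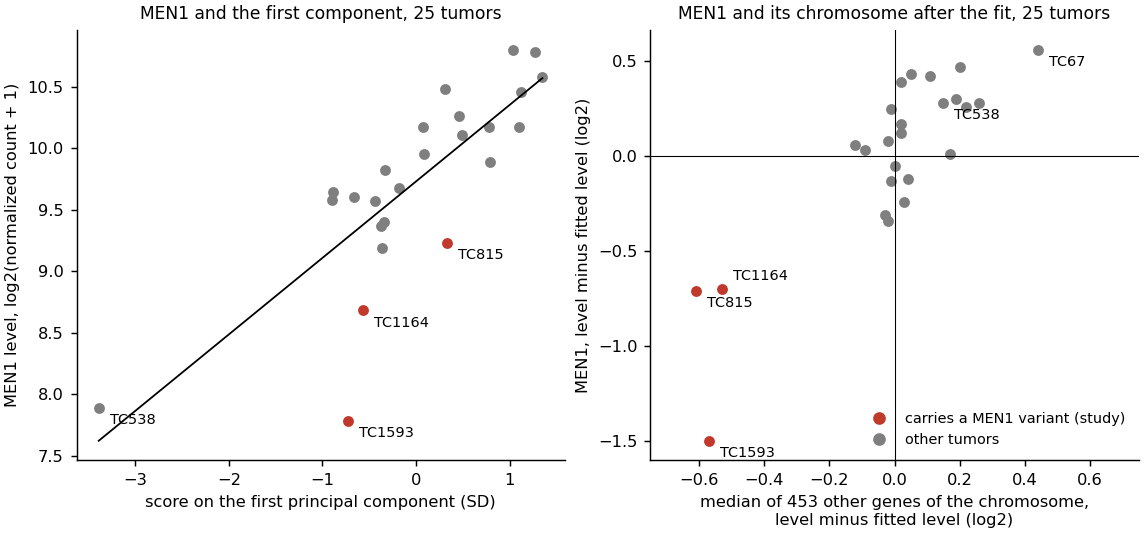
Left, *MEN1* level against the score on the first principal component (in SD) in 25 tumors, with the linear fit as a line. Right, *MEN1* level minus its fitted level against the median of the same difference over 453 other genes of its chromosome (log2); each point is 1 tumor. The tumors TC815, TC1164 and TC1593 lie apart at the lower left of the right panel, at -0.61, -0.53 and -0.57 on the horizontal axis.

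Other members showed the same kind of companionship to different degrees. For *ASH2L*, 261 genes share its chromosome, 1.96% of those placed, and they were 34 of the 50 genes with the highest rho and 45 of 50 after the fit. In TC815 and TC2402, the lowest for *ASH2L* after the fit at -0.90 and -0.94, the medians of its chromosome were also the lowest, -0.54 and -0.56. In TC1164 *ASH2L* was at -0.72 and its chromosome at -0.38. For *KMT2B* 28 and for *WDR5* 16 of the highest 50 after the fit were on the same chromosome, against 5.86% and 6.20% of placed genes. In TC815 and TC1869, with the highest *WDR5* values after the fit (1.06 and 1.03), the chromosome of *WDR5* also had its highest medians (0.33 and 0.42).

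For *KMT2A* they were 11 of 50 against 5.51%, and for *RBBP5* 2 of 50 against 0.993%. For *CDKN1B*, *CDKN2C* and *CDKN1A* 1, 2 and 1 of the highest 50 after the fit shared the chromosome, against 2.50%, 2.50% and 3.00% of placed genes. In single tumors *CDKN1B* and its chromosome lay together in some and apart in others. *CDKN1B* was highest after the fit in TC1869 (1.31), as was its chromosome (0.46), but in TC538 *CDKN1B* was at -0.94 with its chromosome at 0.20, and in TC627, with the lowest chromosome median of -0.56, *CDKN1B* was at -0.08. The low *CDKN2C* of TC1593, -1.56 after the fit, stood beside a chromosome median of 0.34. The high *CDKN1A* of TC1744, 2.05 after the fit, stood beside -0.03.

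Pairs among the 9 genes were correlated in few cases. Of 36 pairs, 22 had a positive and 14 a negative rho, 7 had an unadjusted p under 0.05, and 3 were called. *MEN1* was called with *KMT2B* and *RBBP5*, 2 of the other 8 members, a share under the 34.0% of all genes. With *KMT2B* rho was 0.54 (permutation p = 0.006, adjusted p = 0.0224), Pearson r 0.55 (permutation p = 0.00635) and r without TC1593 and TC538 0.50. With *RBBP5* rho was -0.56 (permutation p = 0.00408, adjusted p = 0.0166), Pearson r -0.58 (permutation p = 0.00204) and r without those tumors -0.39 (permutation p = 0.0677), so that Pearson r rests on them, while the call by rho held with each single tumor left out (rho -0.62 to -0.50, highest adjusted p = 0.0466 by permutation). The third was *KMT2B* with *WDR5* (rho 0.52, permutation p = 0.00898, adjusted p = 0.0456), where *KMT2B* was called with 20.8% of genes, and r was 0.43 (permutation p = 0.0337) and 0.39 (permutation p = 0.0665) without the 2 tumors farthest from the median of *KMT2B*. *KMT2A*, *WDR5* and *ASH2L* were called with 0.00%, 4.66% and 0.155% of genes, and *KMT2A* had an unadjusted p under 0.05 with 13.2%.

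None of the 3 held under every alternative. *MEN1* with *KMT2B* was not called without TC538 (0.49, adjusted p = 0.0515 by permutation) nor with TC1979 or TC2011 left out (highest adjusted p = 0.0527 by permutation), and its rho was -0.07 after the fit on the first component. *MEN1* with *RBBP5* was not called after the fit on total count (-0.29, adjusted p = 0.304 by permutation) or on the first component (-0.08, adjusted p = 0.948 by permutation). Without the tumors with a variant, *MEN1* with *RBBP5* was not called either (-0.37, adjusted p = 0.175 by permutation). In that setting *MEN1* was called with *KMT2B* (0.77, adjusted p = 0.000785 by permutation) and with *WDR5* (0.63, adjusted p = 0.0104 by permutation, against 0.42 and 0.0937 over the 25 tumors). *KMT2B* with *WDR5* was lost with 11 of the 25 tumors left out in turn.

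**Figure D4:**
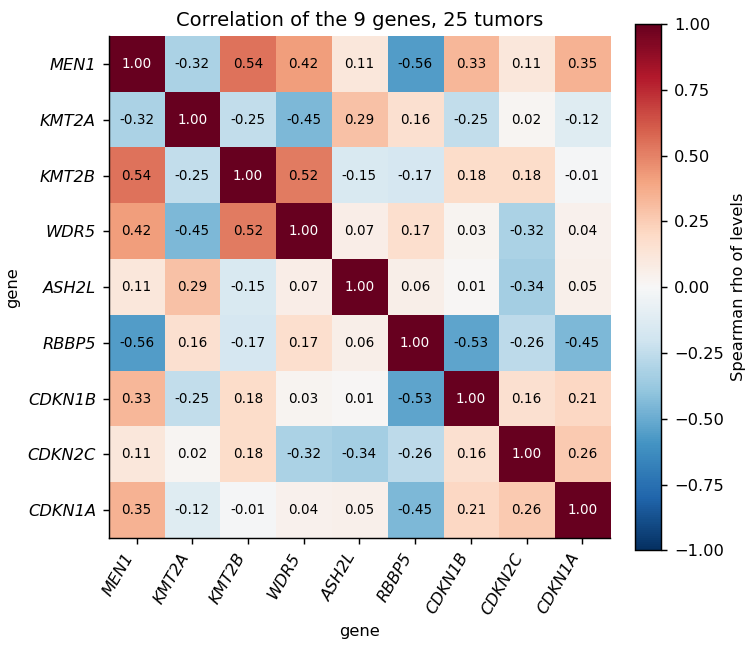
Spearman rho of levels for each pair of the 9 genes over 25 tumors (red positive, blue negative). The pairs called are *MEN1* with *KMT2B* (0.54), *MEN1* with *RBBP5* (-0.56) and *KMT2B* with *WDR5* (0.52).

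Between *MEN1* and the inhibitors no pair was called. For *CDKN1B* rho was 0.33 (permutation p = 0.107, adjusted p = 0.204), for *CDKN2C* 0.11 (permutation p = 0.604, adjusted p = 0.72) and for *CDKN1A* 0.35 (permutation p = 0.0858, adjusted p = 0.172). For *CDKN1B* Pearson r was 0.56 (permutation p = 0.00581), but TC538 is lowest or nearly so for both genes, and r was 0.31 (permutation p = 0.144) without TC538 and TC1593. The inhibitors were not called with each other either, with rho of 0.16, 0.21 and 0.26. *RBBP5* had negative rho with *CDKN1B* (-0.53, permutation p = 0.0066, adjusted p = 0.0676) and with *CDKN1A* (-0.45, permutation p = 0.0254, adjusted p = 0.131), where *RBBP5* was called with 6.76% of genes. *RBBP5* and *CDKN1B* also went in opposite directions with the total count, with rho of -0.49 (permutation p = 0.0147, adjusted p = 0.131) and 0.56 (permutation p = 0.00392, adjusted p = 0.0877).

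**Figure D5:**
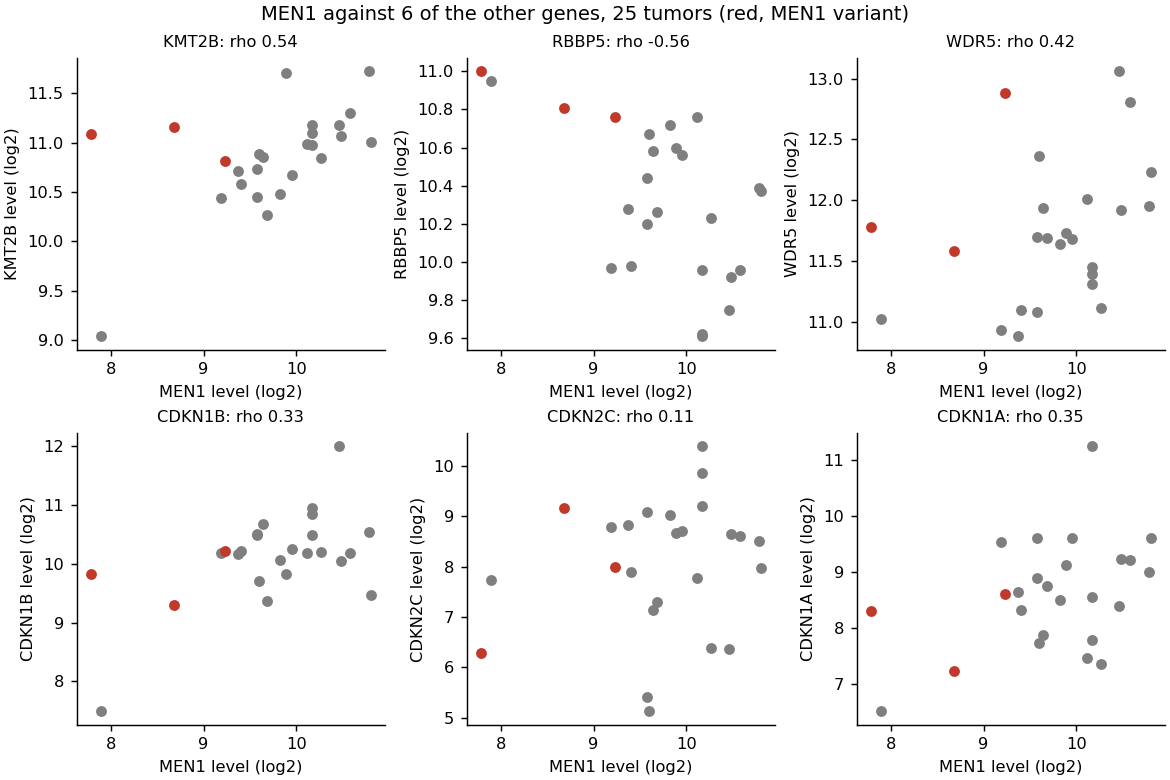
Levels (log2) of *KMT2B*, *RBBP5*, *WDR5*, *CDKN1B*, *CDKN2C* and *CDKN1A* against *MEN1*, each point 1 of 25 tumors and the red points those with a *MEN1* variant. The lone point at the lower left for *KMT2B*, *CDKN1B* and *CDKN1A* is TC538, and the red points are at the top of the *RBBP5* panel.

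Of 15 further genes tied to menin or the KMT2 complexes, not all of them subunits, 13 were in the table and tested against *MEN1*. With a positive rho 6 were called: *HCFC1* (0.77), a subunit shared by these complexes, *JUND* (0.68), a transcription factor that menin binds, *SETD1A* (0.66), *KMT2D* (0.59), *SETD1B* (0.52) and *CXXC1* (0.52), with adjusted p from 0.00049 to 0.0301 by permutation. With a negative rho 2 were called: *KDM6A* (-0.60), the demethylase of the *KMT2C* and *KMT2D* complexes, and *PSIP1* (-0.57), which binds menin and *KMT2A* together. The median rho of the 13 was 0.43 against 0.03 over all genes, and 8 of 13 called compares with 34.0% of all genes. Without TC538, 6 of the 13 were called, beside 2553 positive and 2861 negative calls over 18710 genes. With TMM it was also 6, beside 2570 and 3524. After the fit on the first component none of the 13 was called. *DPY30*, *SMAD3*, *KMT2C*, *PAXIP1* and *NCOA6* were not called, with rho of 0.42, 0.43, -0.40, 0.11 and 0.07.

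Of 5 other CDK inhibitors, a comparison added later, 2 were tested. *CDKN3* had a rho of -0.76 with *MEN1* (permutation p = 2.85e-05, adjusted p = 0.000611) and *CDKN2D* one of 0.28 (permutation p = 0.172, adjusted p = 0.291). A call with a negative rho was made for 18.0% of all genes, and after the fit on the first component for 0. *CDKN3*, a phosphatase of CDKs, was low, with a median level of 5.18 and 11 to 105 counts per tumor.

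The CDK inhibitors themselves were called with no gene at all: 0.00% for *CDKN1B*, *CDKN2C* and *CDKN1A* by the permutation test, while 12.2%, 4.28% and 15.4% of genes had an unadjusted p under 0.05. So none of 16 cyclins, CDKs and RB family genes could be called with any of them, and 5, 2 and 3 had an unadjusted p under 0.05. For *CDKN1B* the highest was *CCND1* (0.57), cyclin D1, and the lowest *RBL1* (-0.63), a relative of RB, and *SKP2* (-0.53), which marks p27 for degradation, with adjusted p of 0.276, 0.255 and 0.305 by permutation. For *CDKN2C* the highest was again *CCND1* (0.50, adjusted p = 0.982 by permutation), and for *CDKN1A* it was *CCND2* (0.59, adjusted p = 0.275 by permutation).

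The genes most like each inhibitor, by rho and with no call, were *ZNF362*, *C8H14orf93* and *TMEM253* for *CDKN1B* (0.74, 0.73 and 0.71), *NDRG1*, *SLC41A2* and *KLHL25* for *CDKN2C* (0.68, 0.65 and 0.62), and *ADCY7*, *AEN* and *KCNQ1* for *CDKN1A* (0.76, 0.74 and 0.73). The lowest were *YEATS2* (-0.74) for *CDKN1B*, *ZNF410* (-0.70) for *CDKN2C* and *ARMH3* (-0.75) for *CDKN1A*.

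Cycling cells were read from *MKI67*, which was called with 0.0962% of genes and with none of the 9 members, of which 1 had an unadjusted p under 0.05, as had 12.2% of all genes. That was *CDKN2C* with a rho of 0.40 (permutation p = 0.0484, adjusted p = 0.406; Pearson r 0.41, permutation p = 0.0395). Without the tumors farthest from the median of *MKI67*, TC1979 and TC538, r was 0.49 (permutation p = 0.016), and without those farthest for *CDKN2C*, TC627 and TC902, it was 0.31 (permutation p = 0.144). *CDKN1A* had 0.39 (permutation p = 0.0541, adjusted p = 0.41) and *MEN1* 0.29 (permutation p = 0.152, adjusted p = 0.52). Against *CDKN2C*, none of 15 proliferation genes was called, 1 had an unadjusted p under 0.05, and the median rho was 0.09. *MKI67* had a rho of 0.67 with the summed skeletal muscle markers (permutation p = 0.000371, adjusted p = 0.0182), of which *MYH2* and *TNNT3* were at or under 3 counts in most tumors. By median that sum was mostly *ACTA1*, with 453.9 normalized counts against 20.8 for *CKM*, the next. It thus cannot be read as a measure of muscle at large, and the part of muscle in the level of *MKI67* was not tested.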

How the data were processed

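RNA was extracted from frozen primary tumors, freed of ribosomal RNA and sequenced as paired ends. Per the labels and the study's methods, the deposited values are raw counts per gene that the authors took from STAR alignments to the CanFam3.1 build; the strand setting was not given in the sources used here, so reads of overlapping and antisense genes cannot be told apart. From the deposited counts, median-of-ratios size factors and log2(normalized count + 1) were computed with Python 3.11.15, numpy 2.4.6, scipy 1.17.1 and pandas 2.3.3. TMM factors came from edgeR 4.0.16 (R 4.3.3). No gene lengths were at hand, so levels were not compared between genes.

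The tumors were clustered by Ward's method on the genes whose levels had a mean over 2 and a variance over 6. Spearman p-values came from 2000000 permutations, the smallest possible being 5e-07, and printed p-values of Pearson r from 100000, the smallest being 1e-05. Where Pearson r served as an alternative for calls, its p came from the t distribution. Spearman p-values, and those of that alternative, were adjusted by Benjamini-Hochberg over all genes tested and called under 0.05. The p of a pair was adjusted over the genes of the member listed first. On simulated data 100 of 100 genes with a slope of 1 and 50 of 100 with a slope of -0.5 were recovered. These slopes were set against a simulated reference gene, not *MEN1*, and there were 6 of 18510 false calls. The unrelated genes were simulated without a shared component, so these false calls do not give the rate among the calls with *MEN1*. Named genes were the members, the listed genes, *MKI67*, the neighbours of *MEN1*, and the 5 highest and lowest rho for *MEN1* or 3 for each inhibitor among genes of at least 100 median normalized counts; *ARFGAP2* and *UQCC3* were named after their values were seen. Chromosomes and gene order came from RefSeq (UU_Cfam_GSD_1.0), another build than that of the counts, matched by symbol, and the comparison by chromosome was chosen after seeing the data. The members and lists were chosen with earlier results of these data known. Genes of the lists without a row were not analysed here. Results for some listed genes are not reported here. The alternatives were other scalings, pseudocounts, count filters, left-out tumors, fits on depth and on the first component, and Pearson r.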

Additional observations from a re-analysis of the deposited data

How the results depend on the processing

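Against 3 pair calls, 1 pair was called with TMM, 1 without TC538, 0 after a fit on log2 total count, 0 after a fit on the first principal component and 5 with Pearson r, while leaving out each tumor in turn gave 1 to 4. *MEN1* with *KMT2B* reversed to -0.07 after the fit on the component. Over the 36 pairs and 8 alternatives, or 288 values, 242 kept their direction and side of the threshold, 12 lost and 4 gained the call, and 30 changed sign, as did 7 of 72 values of *MKI67* with the members. Of the 8 alternatives, the pseudocount of 8 cannot change ranks. Its values for the 36 pairs and for *MKI67* were therefore bound to stay the same. Apart from *MEN1* with *KMT2B*, the pairs that changed sign were called in neither setting, and their new values follow. With TMM, *WDR5* with *CDKN1B* had -0.02. Without TC1088, *KMT2A* with *CDKN2C* had -0.02 and *ASH2L* with *CDKN1B* -0.01. Without TC538, *WDR5* had -0.08 with *CDKN1B* and -0.06 with *CDKN1A*, *ASH2L* -0.05 with *RBBP5*, and *MKI67* 0.06 with *ASH2L* and -0.02 with *CDKN1B*. Without the 3 tumors with a variant, *CDKN1A* had 0.01 with *KMT2A*, 0.09 with *KMT2B* and -0.01 with *ASH2L*, and *ASH2L* -0.01 with *CDKN1B* and 0.03 with *MKI67*. After the fit on total count, *KMT2A* with *CDKN2C* had -0.02, *KMT2B* 0.10 with *RBBP5* and 0.03 with *CDKN1A*, *WDR5* with *CDKN1A* -0.07, *ASH2L* -0.01 with *RBBP5* and -0.05 with *CDKN1B*, and *CDKN1B* with *CDKN1A* -0.01. After that on the component, *MEN1* had -0.03 with *CDKN2C* and -0.04 with *CDKN1A*, *KMT2A* with *CDKN1A* 0.08, *KMT2B* with *RBBP5* 0.36, *WDR5* -0.15 with *CDKN1B* and -0.19 with *CDKN1A*, *ASH2L* with *CDKN1B* -0.12, and *MKI67* -0.04 with *WDR5*, 0.05 with *ASH2L* and -0.06 with *CDKN1B*. With Pearson r, *ASH2L* had -0.04 with *MEN1*, -0.09 with *WDR5*, -0.16 with *CDKN1B* and -0.04 with *CDKN1A*, *KMT2B* with *CDKN1A* 0.29, and *MKI67* with *RBBP5* -0.04. The 3006 positive calls with *MEN1* became 2000 after the fit on total count, 3 after that on the component and 1026 among 5960 genes with at least 100 counts in every tumor, and the 3364 negative calls 0 after the component and 1831 among those genes; leaving out 1 tumor gave 2553 to 3270 and 2861 to 3569. The 8 calls among the menin and KMT2 genes became 6 with TMM, 6 without TC538, 5 with total count and 0 with the component. They became 9 without the tumors with a variant and 9 with Pearson r. The 0 cyclins, CDKs and RB genes called with *CDKN1B* became 4 with Pearson r. With CPM, counts scaled to the library total, *MEN1* lay at -1.80 in TC1593 and -0.47 in TC815. With size factors and after the fit on the component, *MEN1* lay at -1.50 in TC1593 and -0.70 in TC1164. The 20 neighbours lay at -0.57 in TC1164 and -0.67 in TC1593 with TMM, and at -0.52, -0.55 and -0.26 in TC1164, TC1593 and TC815 with CPM. The 453 genes of the chromosome lay at -0.51 in TC1593 and -0.33 in TC815 with CPM. With size factors and after the fit on the component, they lay at -0.53 in TC1164 and -0.57 in TC1593. CPM moved the median of all genes by 0.13 in TC1593, 0.08 in TC815 and -0.35 in TC538, and TMM by -0.12 in TC538. There the difference of *MEN1* from its fit on the component went from 0.28 to -0.17 with CPM and -0.07 with TMM. The cause of these changes was not tested. With 66 reads in TC538, counting error limits *MEN1* there, and a single library per tumor leaves the technical spread unknown. Leaving out each tumor and the fits of single tumors on the component were chosen after seeing the data.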
